A study of Mus musculus with 6 samples.

Results

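The Wnt ligands, their receptors, their secreted antagonists and the factors that carry the signal to the nucleus were followed on mouse expression arrays. The members were chosen by gene symbol: every probe set that the array's annotation assigns to a single Wnt, Frizzled (Fzd), Dickkopf (Dkk) or secreted Frizzled-related (Sfrp) gene, or to Lrp5, Lrp6, Ctnnb1, Axin1, Axin2, Apc, Tcf7, Tcf7l1, Tcf7l2, Lef1, Wif1, Ror1 or Ror2. This gave 83 probe sets for 48 of the 17097 genes named on the array, and all 83 were tested, with no filter on dim signals. Tcf7 and Sfrp4 were not analysed here. By the labels the cells were fibroblasts derived from embryonic stem cells, either wild type (WT, 3 arrays) or null for CD98hc (CD98hc KO, 3 arrays). CD98hc, encoded by Slc3a2, is the heavy chain shared by several amino acid transporters. Both genotypes were grown in high-glucose DMEM with serum and β-mercaptoethanol, and the replicates carry the numbers 1, 3 and 5 under each label. The sources used here give neither the number of clones behind each line nor whether the arrays of a label came from separate cultures, and the p-values therefore reflect the spread of these arrays, which may be technical.

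The targeted gene went against the label. On replicates 1, 3 and 5, the order in which array values are listed throughout, Slc3a2 had log2 values of 10.64, 10.67 and 10.51 (WT label) against 11.65, 11.57 and 11.54 (KO label). It was thus higher under the KO label by 0.98 on the log2 scale (limma, standard error, SE, 0.075 and adjusted p = 0.00012). A probe set outside the deleted segment checks nothing, and no source used here describes the segment. The labelled cell type was also not matched under the KO label. Pluripotency markers were higher there in 12 of 12 genes measured, and of 15 fibroblast markers 9 were lower by over 2-fold. The signal summed over the pluripotency markers ran from 865 to 930 in linear units on the WT-labelled and from 29452 to 32837 on the KO-labelled arrays, and that of the fibroblast markers from 15535 to 23978 and from 2826 to 3906. Pou5f1, which encodes OCT4, averaged 4.76 under the WT label, near the median of 4.23 of the 23 probe sets for nonspecific binding, and so did Lum and Pdgfra, fibroblast markers, under both labels. Of 7 epithelial markers 7 were higher under the KO label, with a summed signal from 193 to 221 (WT label) and from 2625 to 3768 (KO label). At the thresholds given below 0 of 5 endothelial and 0 of 4 blood markers were called, and 3 of 6 neural and 3 of 8 primitive streak and endoderm markers were, in both directions. The pluripotency, epithelial and most fibroblast markers moved with the label, as did each gene called below, and their part in the Wnt results was not tested. Each direction is therefore that of the KO label relative to the WT label, and in RNA of bulk cultures fewer cells of a type and less RNA per cell cannot be told apart. The 9 hybridisation control probe sets were lower on the replicate 3 arrays of both labels by 1.16 on the log2 scale, and the labels were therefore also compared over replicates 1 and 5 alone.

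Wnt proteins are secreted, lipid-modified ligands that bind Frizzled receptors. With the co-receptors LRP5 and LRP6 they halt a complex built on AXIN and APC that otherwise marks β-catenin for degradation, and β-catenin then acts in the nucleus with the DNA-binding factors of the TCF/LEF family. Other Wnt signals run through ROR receptors or planar polarity proteins without β-catenin. In mouse embryonic stem cells Wnt signals help to maintain self-renewal, and TCF7L1 restrains the pluripotency genes, whereas in fibroblasts Wnt signals take part in matrix production and wound repair.

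The members of the pathway changed in both directions. Of the 48 members, 13 were called differentially expressed (more than 2-fold, with an adjusted p below 0.05), against a background of 19.4% of all genes. Higher on the KO-labelled arrays were 7 members (9.27% of all genes were called higher): the antagonists Sfrp2 and Sfrp1, the receptors Fzd7, Fzd5 and Ror2, and the nuclear factors Lef1 and Tcf7l1. Lower were 6 members (10.1% of all genes were called lower): the ligands Wnt7b, Wnt10b and Wnt10a, the receptors Fzd6 and Fzd2, and the nuclear factor Tcf7l2. The called members are 27.1% of the 48. In all, 22 members passed the adjusted p alone, against 41.9% of all genes. Of these, 9 did so without a 2-fold change, with log2 fold changes between −0.94 and 0.73. The other 26 members did not pass, with values between −0.58 and 0.38. In 27 members the 3 arrays of one label lay apart from the 3 of the other, which was so for 51.5% of all genes. The median log2 fold change was 0.10 over the members and 0.02 over all genes. With 3 arrays per label the smallest p of an exact permutation test is 0.1, and the calls therefore rest on the fit of limma to all genes. No detection calls were used, and fold changes from low levels are understated. Under both labels 22 members, 12 of them ligands, averaged below the median of all probe sets (5.73).

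**Figure D1:**
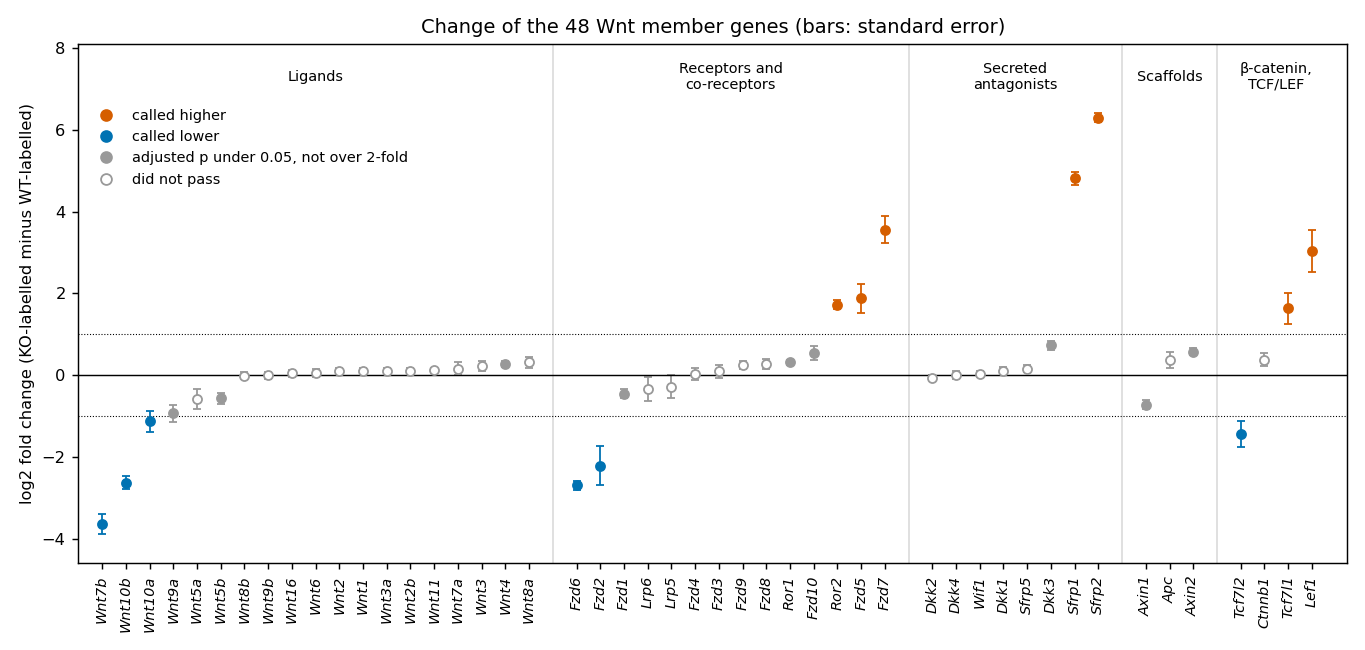
Log2 fold change (KO-labelled minus WT-labelled arrays) of the 48 member genes by role, each represented by its most variable probe set, with standard error bars and dotted lines at a 2-fold change. Orange points were called higher and blue points lower, filled grey points passed the adjusted p only, and open points did not pass. The called ligands lie below 0, the called antagonists above 0, and the called receptors and TCF/LEF factors on both sides.

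The promoters printed are those of the called members with the largest changes in each direction among those with a sequence at hand. No sequence was at hand for Sfrp1, which rose more than Fzd7, or for Wnt7b, Fzd6 and Fzd2, which fell more than Tcf7l2. RefSeq promoters of the GRCm38.p6 assembly were at hand for 33 of the 48 members and for 8 of the 13 called members. The 250 bases before the annotated start follow, 5′ to 3′ on the strand of the gene, for Sfrp2 and Fzd7 (higher under the KO label) and for Wnt10b and Tcf7l2 (lower). For Tcf7l2, which has several starts, the start listed first is given. Capitals mark a match to the octamer ATTTGCAT, the site of OCT factors, or to the TCF/LEF core CTTTGAT or CTTTGAA, on either strand. Both cores share their first 6 letters. Only these forms of the core were searched, and other forms were neither marked nor counted, here or below. In the 4 stretches printed the single match to the motifs searched is the octamer in Sfrp2.
Sfrp2, chr3:83766071-83766320, plus strand: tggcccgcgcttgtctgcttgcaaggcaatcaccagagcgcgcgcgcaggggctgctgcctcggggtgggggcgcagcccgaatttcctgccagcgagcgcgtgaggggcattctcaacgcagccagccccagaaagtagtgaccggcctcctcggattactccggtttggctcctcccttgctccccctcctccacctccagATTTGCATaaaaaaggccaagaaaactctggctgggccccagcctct
Fzd7, chr1:59481897-59482146, plus strand: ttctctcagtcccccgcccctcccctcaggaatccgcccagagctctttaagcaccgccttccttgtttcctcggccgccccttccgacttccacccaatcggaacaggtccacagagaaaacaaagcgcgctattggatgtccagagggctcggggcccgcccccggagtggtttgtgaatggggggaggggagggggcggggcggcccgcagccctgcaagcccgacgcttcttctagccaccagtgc
Wnt10b, chr15:98778151-98778400, minus strand: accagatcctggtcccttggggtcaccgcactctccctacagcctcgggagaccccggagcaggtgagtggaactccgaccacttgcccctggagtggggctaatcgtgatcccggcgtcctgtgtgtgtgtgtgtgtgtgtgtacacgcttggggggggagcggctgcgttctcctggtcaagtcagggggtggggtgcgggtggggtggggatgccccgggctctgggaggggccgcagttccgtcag
Tcf7l2, chr19:55741560-55741809, plus strand: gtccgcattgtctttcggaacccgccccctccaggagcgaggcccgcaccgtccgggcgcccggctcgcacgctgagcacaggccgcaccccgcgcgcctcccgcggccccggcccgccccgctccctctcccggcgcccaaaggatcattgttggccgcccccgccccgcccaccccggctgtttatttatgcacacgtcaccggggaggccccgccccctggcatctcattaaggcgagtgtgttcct

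The octamer was present in the Sfrp2 promoter, from position −47 to −40 before the start, and in 1 of the 33 member genes in all. It was present in 1.6% of the 32851 promoters of the table over the same 250 bases. A TCF/LEF core of the forms searched was present in front of 3 member genes, Wnt5b, Wnt11 and Dkk1, and in 7.48% of all promoters. None of these 3 genes changed by over 2-fold. For each of these genes 1 promoter held the match. The 33 member genes had 41 promoters, so the counts of member genes and the shares of promoters differ in unit. The 41 promoters of the members held a median of 22 CG dinucleotides in 250 bases, against 6 over the whole table. The 4 printed promoters held 16 (Sfrp2), 17 (Fzd7), 14 (Wnt10b) and 30 (Tcf7l2). A match is a description of the letters, not a site of binding.

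Among the 19 ligand genes, 3 fell on the KO-labelled arrays by over 2-fold and 0 rose by that much, so that 15.8% were called, against 19.4% of all genes. Wnt7b, a ligand that signals through β-catenin in lung and skin, had log2 values of 8.17, 8.71 and 9.14 (WT label) against 4.87, 5.23 and 5.00 (KO label). The labels did not overlap, and all KO-labelled values were low. The log2 fold change was −3.64 (limma, SE 0.25 and adjusted p = 7.6e-05), a 12.5-fold difference, and the other Wnt7b probe set had −2.19. Wnt10b, which favours bone over fat formation, had 7.76, 7.80 and 8.11 (WT label) against 4.98, 5.38 and 5.42 (KO label). The spread within each label was small beside the gap, and Wnt10b fell by 2.63 on the log2 scale (limma, SE 0.15 and adjusted p = 4.1e-05), which is 6.18-fold. Its close relative Wnt10a had 6.33, 6.34 and 7.29 against 5.49, 5.49 and 5.60. Here the WT-labelled replicate 5 array stood above the other two. The change of −1.13 (limma, SE 0.26 and adjusted p = 0.013) was −0.81 (adjusted p = 0.001) without that array, under the 2-fold limit, and with both replicate 3 arrays left out it was −1.27 (adjusted p = 0.055).

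Of the other ligands, Wnt9a (−0.94), Wnt5b (−0.57) and Wnt4 (0.27) passed the adjusted p with log2 fold changes under 2-fold. Wnt9a passed the 2-fold limit as well with the arrays centred on their medians, without WT-labelled replicate 1 or without KO-labelled replicate 5. The remaining 13 ligands did not pass, with values from −0.58 (Wnt5a, the best known ligand of β-catenin-independent signalling) to 0.31 (Wnt8a). For Wnt5a the most variable probe set had an adjusted p of 0.1 over the genes, while the other had a log2 fold change of −0.51 with an adjusted p of 0.0042 over the probe sets. Wnt3a, a standard activator of β-catenin signalling, had a log2 fold change of 0.10, with a 95% confidence interval (not adjusted over genes) from −0.09 to 0.28.

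Receptor genes changed in both directions, Fzd7, Fzd5 and Ror2 upwards and Fzd6 and Fzd2 downwards. Of 14 genes for receptors and co-receptors, 3 were called higher and 2 lower under the KO label, and 9 were not called. The called genes were 35.7% of the 14, against 19.4% of all genes (9.27% higher and 10.1% lower). Fzd7, a Frizzled that is abundant in pluripotent cells, had log2 values of 6.34, 6.41 and 6.13 (WT label) against 9.96, 10.47 and 9.10 (KO label). Every KO-labelled array lay well above the WT-labelled ones, with replicate 5 the lowest of them. The log2 fold change was 3.55 (limma, SE 0.33 and adjusted p = 0.00027), 11.7-fold, and 2.75 for the other probe set. Fzd5, a Frizzled with roles in eye and gut, had 4.74, 4.43 and 4.71 against 6.40, 5.81 and 7.32. Its KO-labelled arrays were spread over a wide range, with replicate 5 the highest, and the fold change was 1.88 on the log2 scale (limma, SE 0.36 and adjusted p = 0.0064) and 1.73 for the other probe set. Ror2, a receptor kinase for WNT5A, had 4.83, 4.70 and 4.70 against 6.63, 6.25 and 6.51. Its arrays agreed closely within each label, and it rose by 1.72 on the log2 scale (limma, SE 0.11 and adjusted p = 6.4e-05).

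Fzd6, a Frizzled of hair patterning and planar polarity, went the other way, with log2 values of 9.51, 9.45 and 9.78 (WT label) against 6.74, 6.96 and 6.97 (KO label). The arrays of a label lay close together, and Fzd6 fell by 2.69 on the log2 scale (limma, SE 0.11 and adjusted p = 1.2e-05), which is 6.45-fold, with −1.73 for the other probe set. Fzd2, a widely expressed Frizzled that can bind WNT5A, had 8.72, 9.78 and 9.77 against 7.01, 8.12 and 6.48. The labels did not overlap, but the lowest WT-labelled and the highest KO-labelled array came within 1 unit of each other. The log2 fold change of −2.22 (limma, SE 0.48 and adjusted p = 0.01) belonged to its most variable probe set. The other probe sets had −1.14 and −0.90, and the gene was not called by the probe set with the largest mean (−0.90, adjusted p = 0.066).

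The co-receptor genes did not pass. The log2 fold change of Lrp5 was −0.29 (95% confidence interval −0.97 to 0.39) and that of Lrp6 −0.34 (−1.03 to 0.35), and for both genes the values of the labels overlapped. Fzd10 (0.55), Ror1 (0.31) and Fzd1 (−0.46) passed with log2 fold changes under 2-fold. Fzd3, Fzd4, Fzd8 and Fzd9 did not pass, with log2 fold changes from 0.02 to 0.27. Fzd3 was the member with most probe sets, and all 6 of them gave a difference under 0.3 on the log2 scale.

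The secreted antagonists Sfrp2 and Sfrp1 had the largest changes of the 48 members. SFRP proteins carry a Frizzled-like domain with which they bind Wnt ligands outside the cell. Sfrp2 had log2 values of 4.60, 4.68 and 4.54 (WT label) against 10.69, 10.95 and 11.07 (KO label). It was low on every WT-labelled array, and it rose by 6.29 on the log2 scale (limma, SE 0.11 and adjusted p = 6.2e-07), 78.4-fold. Sfrp1 had 4.98, 4.96 and 4.84 against 9.96, 9.39 and 9.86. It behaved in the same way, with a log2 fold change of 4.81 (limma, SE 0.16 and adjusted p = 4.3e-06), 28-fold. Across the alternatives tried, the log2 fold change ran from 6.21 to 6.40 for Sfrp2 and from 4.70 to 5.00 for Sfrp1.

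The other antagonists differed by less than 2-fold. Dkk3, a divergent member of the Dickkopf family, passed with a log2 fold change of 0.73 (limma, SE 0.11 and adjusted p = 0.0019), under 2-fold. Dkk1, Dkk2, Dkk4, Sfrp5 and Wif1 did not pass, with values from −0.06 to 0.16. For Dkk1, which blocks LRP5 and LRP6 and is itself a target of Wnt signalling, the difference was 0.10 on the log2 scale with a 95% confidence interval from −0.12 to 0.33. Its levels were low, at a mean of 4.65 (WT label) and 4.76 (KO label), where a difference can be understated.

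**Figure D2:**
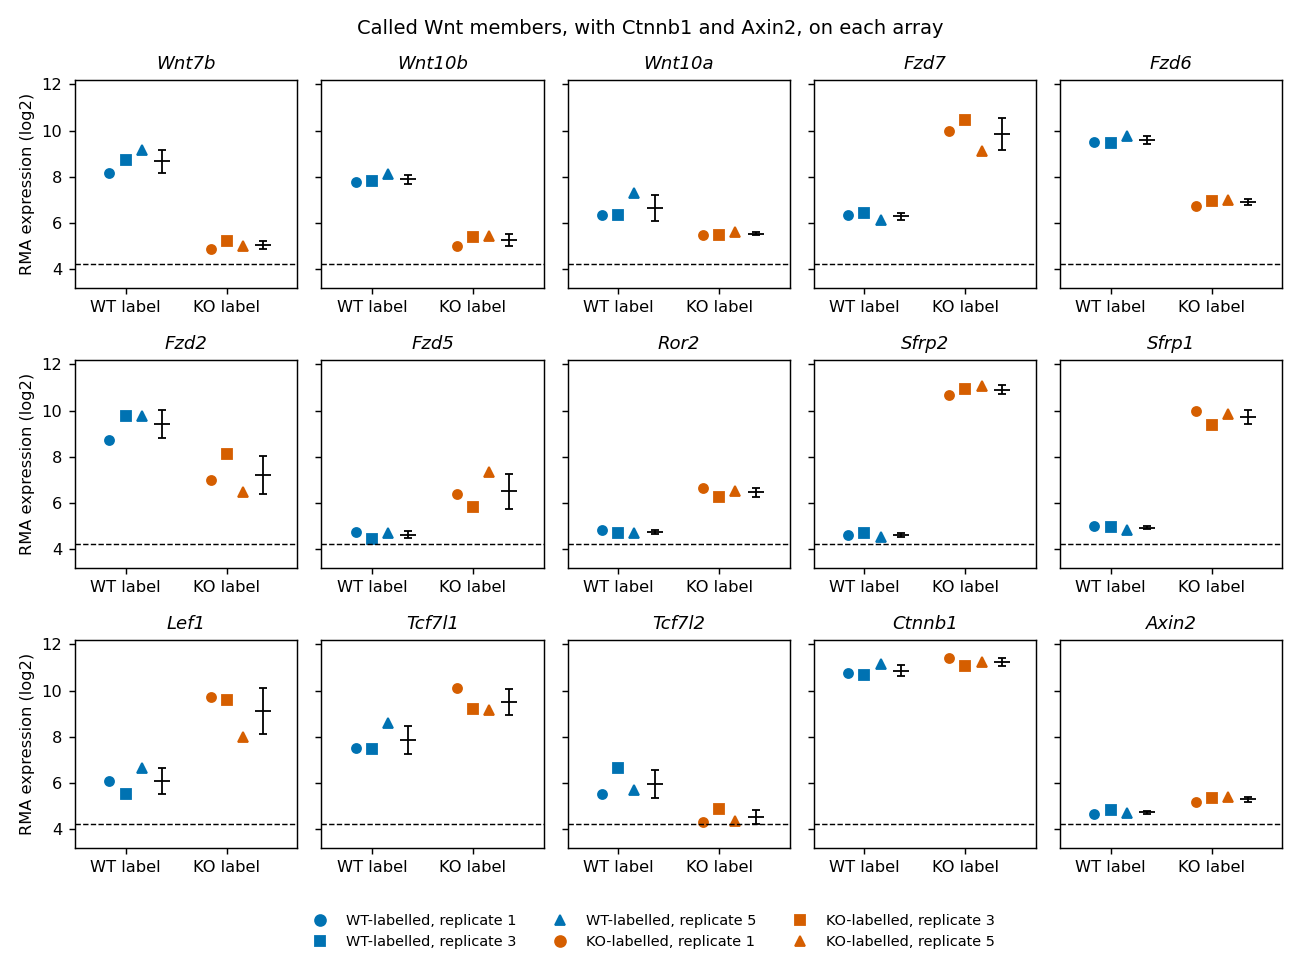
RMA expression (log2) of the 13 called members, Ctnnb1 and Axin2 on each array, with a symbol for each replicate number, black marks beside them for mean ± SD (n = 3), and the nonspecific median of 4.23 dashed. In each of the 13 called genes the 3 WT-labelled arrays (blue) and the 3 KO-labelled arrays (orange) do not overlap, while those of Ctnnb1 do. The thresholds of the call favour this, and the labels did not overlap in 51.5% of all genes.

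The scaffolds and β-catenin itself differed by less than 2-fold. Of the scaffold genes Axin1, Axin2 and Apc, 0 were called, against 19.4% of all genes. Axin1, a core scaffold of the complex that degrades β-catenin, had 9.60, 9.74 and 9.56 against 8.69, 9.11 and 8.95, without overlap, and fell by 0.72 on the log2 scale (limma, SE 0.12 and adjusted p = 0.0037). Axin2, a scaffold that is induced by β-catenin in most tissues, had log2 values of 4.66, 4.81 and 4.69 against 5.16, 5.34 and 5.37. The labels did not overlap, both levels were low, and the log2 fold change of 0.57 (limma, SE 0.086 and adjusted p = 0.0022) was under 2-fold. Its other probe set had 0.47, with an adjusted p of 0.054 over the probe sets. Apc, the tumour suppressor of the same complex, had 8.63, 8.50 and 9.07 against 9.34, 8.79 and 9.19, a difference of 0.37 (95% confidence interval −0.11 to 0.85) that did not pass, and none of its 4 probe sets was called. Ctnnb1, the gene of β-catenin, had 10.75, 10.68 and 11.13 against 11.41, 11.07 and 11.23. These values overlapped, and the difference of 0.38 on the log2 scale (limma, SE 0.15 and adjusted p = 0.081) was not called by any of the 3 probe sets, of which the one with the largest mean had 0.06. Ctnnb1 passed the adjusted p, under 2-fold, with the hybridisation control split in the model (0.38, adjusted p = 0.042 from limma). It also passed, under 2-fold, without WT-labelled replicate 5 (0.52, adjusted p = 0.02 from limma). The arrays measure the mRNA, not the stability of the protein.

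The TCF/LEF genes differed from each other in direction. Lef1, usually an activator with β-catenin, had log2 values of 6.09, 5.50 and 6.63 (WT label) against 9.74, 9.60 and 7.97 (KO label). The KO-labelled replicate 5 array was more than 1.5 units below the other two but above every WT-labelled array, and the log2 fold change was 3.03 (limma, SE 0.52 and adjusted p = 0.004), 8.18-fold. With both replicate 3 arrays left out it was 2.49 and not called (adjusted p = 0.05 after rounding). Tcf7l1, a repressor that acts in embryonic stem cells, had 7.51, 7.49 and 8.58 against 10.12, 9.22 and 9.14. The highest WT-labelled array lay just below the lowest KO-labelled one. The log2 fold change was 1.64 (limma, SE 0.38 and adjusted p = 0.014) and 1.62 for the other probe set, but the call was lost without WT-labelled replicate 3 (1.45, adjusted p = 0.054) and without both replicate 3 arrays (1.59, adjusted p = 0.086).

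Tcf7l2, the main TCF factor of gut epithelium, fell under the KO label. Its most variable probe set had 5.54, 6.66 and 5.70 against 4.32, 4.88 and 4.37, and its log2 fold change was −1.44 (limma, SE 0.32 and adjusted p = 0.011). All 4 Tcf7l2 probe sets were lower, and the others had −1.04, −1.11 and −0.98. The last of these has the largest mean, and the gene missed the 2-fold limit with it (adjusted p = 0.0044).

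Among the called members the probe sets of a gene shared a direction. The 7 called members with several had 17 probe sets, of which all 17 differed in the gene's direction and 15 were called. The 18 members with several that were not called had 43 probe sets, of which 0 were called. Among these, the probe sets of Dkk1, Fzd3 and Fzd4 differed in sign, with log2 fold changes from −0.09 to 0.23. The counts for called and uncalled members include the probe set that stands for each gene. It was chosen as the most variable, so these counts are partly set by that choice. Of all 83 probe sets 21 were called, against 13.8% of the 45037 tested. They were 10 called higher (background 6.35%) and 11 called lower (background 7.43%). The other 6 called members (Wnt10b, Wnt10a, Ror2, Sfrp2, Sfrp1 and Lef1) rested on 1 probe set each.

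**Figure D3:**
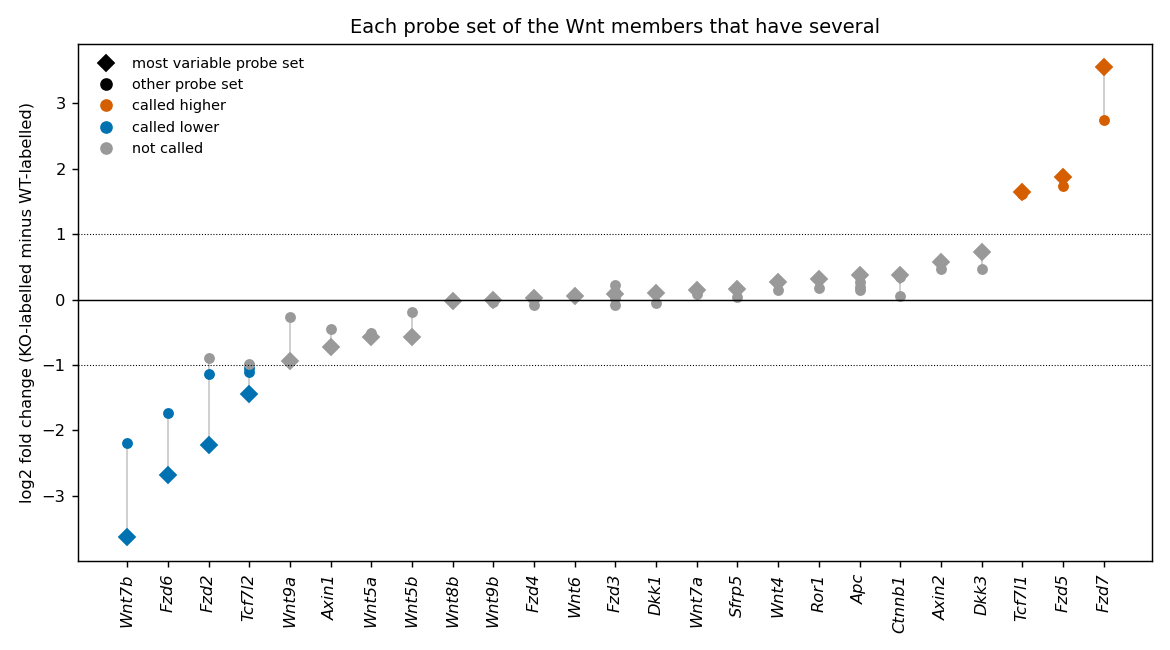
Log2 fold change (KO-labelled minus WT-labelled) of each probe set of the 25 members that have several, with a diamond for the most variable probe set of a gene and dotted lines at a 2-fold change. Orange and blue mark probe sets called higher and lower. The probe sets of the 7 called members lie on 1 side of 0. The most variable is the farthest from 0 in each, which the choice by variability favours.

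Within the KO label, replicate 5 stood apart in part of the family. Each gene is given here by its most variable probe set. On replicate 5, Lef1 (−1.70) and Fzd7 (−1.12) were more than 1 log2 unit below the mean of replicates 1 and 3. Fzd5 (1.22) was more than 1 unit above it. On the KO-labelled arrays the other Fzd7 probe set had 9.99, 9.59 and 9.01, and the other Fzd5 probe set 8.75, 8.51 and 9.17. In both, replicate 5 kept its direction but was within 1 unit of that mean. Fzd2 also had a difference of −1.08, but on this probe set the array farthest from the other two was replicate 3, 1.37 above their mean. By smaller amounts, Fzd10 (0.61) and Wnt5a (0.52) were higher on replicate 5 and Tcf7l1 (−0.53) was lower. These are differences of a single array with no test, and they were singled out after their values were seen. Over the 48 members, the array farthest from the other two of the KO label was replicate 1 in 19, replicate 3 in 14 and replicate 5 in 15. With KO-labelled replicate 5 left out, 14 members were called, the 13 above and Wnt9a.

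**Figure D4:**
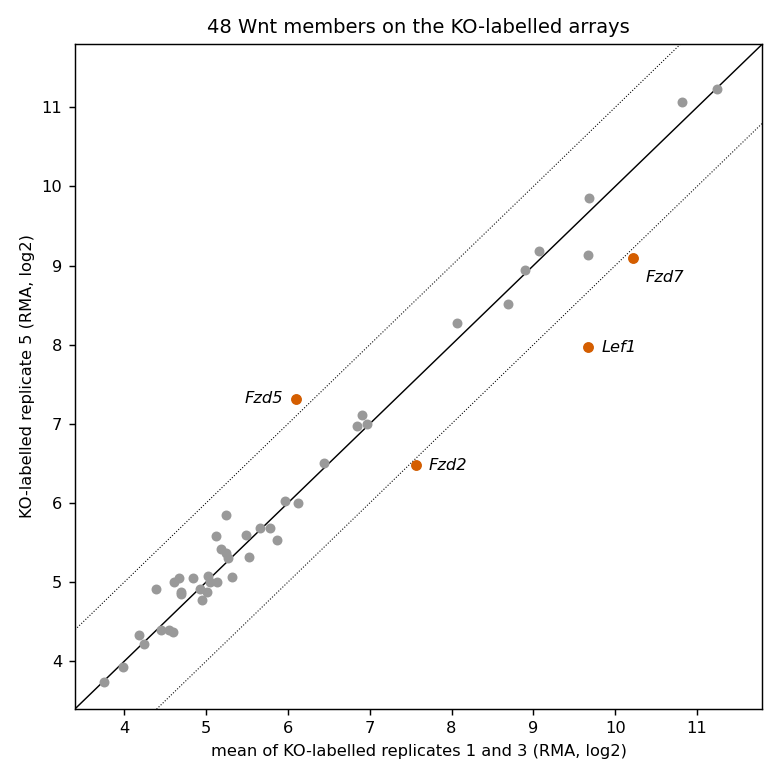
RMA expression (log2) of the 48 members on the KO-labelled replicate 5 array against the mean of KO-labelled replicates 1 and 3, with a solid line at equality and dotted lines 1 unit above and below. Each member is represented by its most variable probe set. Lef1, Fzd7 and Fzd2 lie below the lower dotted line and Fzd5 above the upper one, and for Fzd2 the replicate 3 array, which raises the mean, is the one farthest from the other two.

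The rest of the pathway was described by lists of other genes, of which 114 were measured. Of these 114 genes, 17 were called higher and 12 lower under the KO label, together 25.4% of them, against 19.4% of all genes (9.27% higher and 10.1% lower). The adjusted p alone was passed by 64 (36 higher and 28 lower), against 41.9% of all genes. The shares over all genes are also the background of the counts by list that follow. Their median was 0.06 on the log2 scale. The genes for the release of Wnt ligands moved in opposite directions. Wls, the carrier that brings Wnt ligands to the cell surface, fell by 3.76 on the log2 scale (limma, SE 0.19 and adjusted p = 2.3e-05), and Porcn, the enzyme that attaches their lipid, rose by 2.11 (limma, SE 0.32 and adjusted p = 0.0022). Of 9 genes for R-spondins and their receptors and ligases 1 was called higher and 2 lower. Lgr4, an R-spondin receptor, had a log2 fold change of 2.79, while Znrf3, a ligase that removes Frizzled from the membrane, had −1.27 and Lgr6 −1.10. Of 14 extracellular modulators 4 were called higher and 0 lower, among them the glypican Gpc4 (3.94), Shisa2, which retains Frizzled inside the cell (3.28), and Igfbp4 (2.37).

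Of 30 genes of the cytoplasmic relay 2 were called higher, Dact1 (log2 fold change 1.93) and Dact2 (1.74), which bind Dishevelled, and 1 lower, the casein kinase gene Csnk1g1 (−1.21). Gsk3b, the kinase that marks β-catenin for degradation, had a log2 fold change of −0.83 (limma, SE 0.19 and adjusted p = 0.013), under 2-fold. With both replicate 3 arrays left out it was −0.91 and did not pass (adjusted p = 0.069 from limma). Of 21 nuclear co-factors 2 were called higher and 1 lower. Tle4, a Groucho co-repressor that binds TCF factors, averaged 5.32 ± 0.23 (WT label) against 11.03 ± 0.21 (KO label, log2 mean ± SD of 3 arrays), and the co-repressor Ctbp2 had a log2 fold change of 1.94, while Bcl9l, a co-activator of β-catenin, fell by 2.14. Of 20 genes of β-catenin-independent signalling 4 were called higher and 2 lower, among them the planar polarity genes Vangl2 (2.68) and Celsr3 (2.01) and the calcium-dependent kinase gene Camk2d (−3.35).

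The list of reported Wnt targets had 23 measured genes, of which 4 were called higher and 6 lower, against 9.27% and 10.1% of all genes. Esrrb, a pluripotency factor that TCF7L1 represses, had a log2 fold change of 6.63, and it is also among the pluripotency markers above. Cd44, a hyaluronan receptor of fibroblasts, had −7.01 and Sox9, a factor of cartilage and progenitor cells, −5.17. With the mean of a gene's probe sets in place of the most variable one, the log2 fold change was −2.74 for Sox9, −1.84 for Camk2d, 1.67 for Lgr4, 1.29 for Igfbp4 and 1.09 for Dact2, all still called. With the probe set of the largest mean it was −2.28 for Wls, also called, and −0.40 for Gsk3b. The median over the list was 0.05 on the log2 scale.

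**Figure D5:**
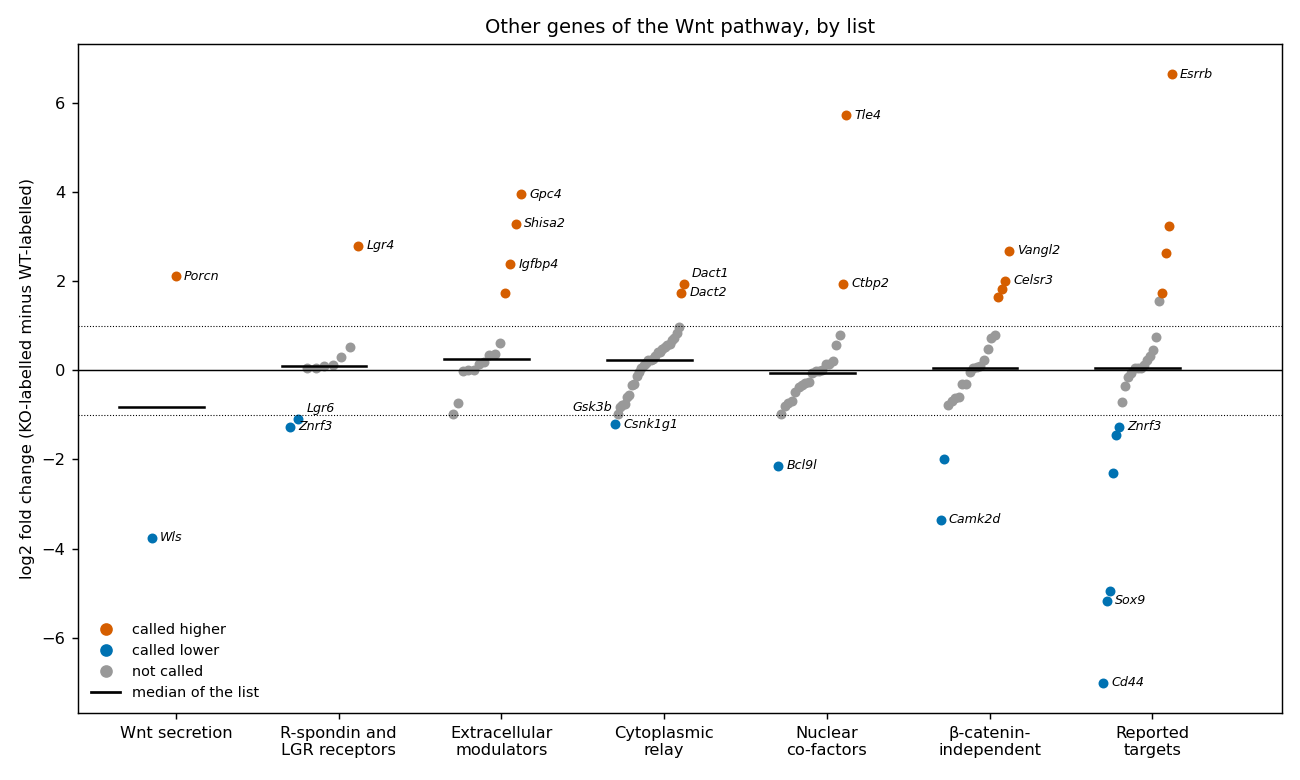
Log2 fold change (KO-labelled minus WT-labelled) of the 114 other pathway genes by list, with a black bar at the median of each list and dotted lines at a 2-fold change; genes on more than 1 list appear in each. Called genes (orange higher, blue lower) lie on both sides of 0 in every list except the extracellular modulators, where the called genes are higher.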

How the data were processed

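RNA of 3 arrays labelled WT and 3 labelled CD98hc KO was hybridised to Affymetrix perfect-match mouse arrays. The deposited log2 values were computed by the authors with RMA, which normalises the arrays and summarises the probes into probe sets, in versions that the sources used here do not give. All 6 columns were used as deposited. Probe sets were named from the platform annotation: of 45141 (104 of them array controls), 28898 had 1 gene symbol, and of these 28689 matched a RefSeq gene table of GRCm38.p6, with 0 symbols changed. For each of 17097 genes the most variable probe set (by SD over all 6 arrays) was taken, the rule of the study's enrichment analysis. A linear model (limma 3.58.1, R 4.3.3, lmFit and eBayes) was fitted to 45037 probe sets, KO-labelled minus WT-labelled, with Benjamini-Hochberg adjustment over the genes or, where stated, the probe sets. The scan batch, a covariate of the study, was not used here, since no source assigns it to arrays. Precision rests on the small number of arrays. The members and lists were chosen with earlier results of these data known. Per-array values were to be given for up to 4 called members of each role and for Ctnnb1, Axin2, Apc and the TCF/LEF genes. Ror2 and Axin1 were added after their values were seen. Of each other list up to 3 called genes, with Gsk3b, Porcn and Wls, are named. Alternatives were the replicate block, the hybridisation control split, other probe sets per gene, quantile normalisation or median centring, removal of dim probe sets, an intensity trend, no fold limit and leaving out each array. The calculation was tested on simulated data. Plots used matplotlib 3.10.9 (Python 3.11.15).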

Additional observations from a re-analysis of the deposited data

Results flagged for a closer look

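Probe sets shared by Sfrp1 and another gene, which the comparisons above did not use, also differed between the labels. The annotation assigns 3 probe sets to both Serinc3 and Sfrp1, so they named no gene. Their log2 fold changes, KO-labelled minus WT-labelled arrays, were 3.36, 5.43 and 4.06 (adjusted p from limma 1.7e-05, 2.5e-06 and 1.2e-05 over the probe sets), and on all 3 probe sets each KO-labelled array was above each WT-labelled array. The probe set that names Sfrp1 alone had 4.81. Which of these genes the shared probe sets measure was not tested.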

How the results depend on the processing

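No result reversed under the alternatives tried. Without the fold limit, 22 members were called in place of 13 (12 higher and 10 lower), 32 member probe sets in place of 21 and 64 other pathway genes in place of 29. The other alternatives left these counts within 1.5 times. Leaving out each array in turn gave 12 to 14 members. With the replicate block the same 13 members were called, with 3326 genes called in all against 3318. Arrays with the same number did not deviate together in every case (r = 0.06, 0.56 and 0.15 for replicates 1, 3 and 5), so the numbers were not taken as pairs. The same 13 were called with the hybridisation control split in the model, and within the 4 arrays of replicates 1 and 5 there were 10, without Lef1, Tcf7l1 and Wnt10a. The probe set with the largest mean gave 11, without Fzd2 and Tcf7l2, and with it Csnk1g1 (−0.43) was not called. With the mean of a gene's probe sets the same 13 were called, while Znrf3 (−0.88) and Csnk1g1 (−0.81) missed the fold limit, as Lgr6 (−0.99) did without WT replicate 1. The filter on dim probe sets removed Ror2, which was then not tested, and kept the other 12. It left 22 of the members to be tested, and 28.3% of the 10429 genes it left were called. Slc3a2 ranged from 0.90 to 1.02 on the log2 scale. For the low calls, signal over background is the limit.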

Other observations

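The KO-labelled replicate 5 array also differed in part of the caudal-type homeobox genes, which Wnt signals induce in the posterior embryo. Cdx1 had log2 values of 5.60, 4.93 and 8.50 on KO-labelled replicates 1, 3 and 5, against 4.78, 4.67 and 4.91 on the WT-labelled arrays, and did not pass (log2 fold change 1.55, adjusted p = 0.22 from limma). Cdx2 had 5.39, 5.55 and 6.24 on the same KO-labelled arrays and passed with 0.74 (adjusted p = 0.041 from limma), under 2-fold. Cdx4 had 3.94, 4.09 and 3.83, with replicate 5 the lowest, and did not pass (0.05, adjusted p = 0.76 from limma). Sp5, a factor induced by β-catenin, had 6.56, 6.76 and 7.30 and did not pass (0.45, adjusted p = 0.12 from limma). Other reported targets differed in both directions on replicate 5 from the mean of KO-labelled replicates 1 and 3. Among them were Esrrb (0.75), Twist1 (0.42), Myc (−0.62) and Znrf3 (−0.28). For Cdx1, Cdx2 and Sp5 replicate 5 was the highest of the 6 arrays. They were singled out after their values were seen, and the differences of a single array have no test.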
